A study of Mus musculus with 6 samples.

Results

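The suppressor of cytokine signalling (SOCS) family was followed through the hippocampus of APP/PS1 and wild-type mice at 6 months of age. Its members were taken by symbol, Socs1 to Socs7 and Cish, and all 8 were found on 1 row each among 15616 distinct gene names. The family was chosen by the difference in FPKM between the labels that 1 member, Socs6, showed in an earlier analysis of the same libraries. The 3 libraries labelled APP/PS1 were described as coming from mice that express APP695swe and PS1-dE9. These are mutant forms of the amyloid precursor protein and of presenilin 1. The other 3 were labelled wild type (WT). Both groups share tissue and age. The labels name no mouse line, promoter, sex or litter. Nothing in them says whether the replicates of a group were different animals, so the spread that a p-value rests on may be technical. Values are FPKM as the authors deposited them, fragments scaled to transcript length and to the library's total, so levels of different genes can be compared. The depth behind them is unknown.

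SOCS proteins bind phosphorylated tyrosines through an SH2 domain and, through a C-terminal SOCS box, recruit elongins and a cullin to tag their targets with ubiquitin. CIS (encoded by Cish) and SOCS1 to SOCS3 are known as feedback inhibitors, which cytokines switch on through JAK kinases and STAT transcription factors and which then dampen the same receptors. SOCS4 to SOCS7 have long N-terminal regions and are better known for acting on receptor tyrosine kinases and insulin signalling. In the brain, SOCS3 is known to restrain signalling by leptin and by the gp130 cytokines, and SOCS2 to restrain growth hormone.

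The RefSeq promoter table (build GRCm38.p6) held 4 of the 8 members, Cish, Socs1, Socs3 and Socs4, each with 250 bases before the transcription start and 50 from it. They were searched on both strands for TTCNNNGAA, the palindrome that STAT factors bind, and for GAAANNGAAA, a core of interferon response elements. Stretches around the matches are shown for the members with one, since these feedback genes are known to be driven by cytokines. Capitals mark the matches, and bases are counted from 1 at the transcription start, with -1 just before it.
Cish, chr9:107296579-107296678, plus strand, bases -80 to 20: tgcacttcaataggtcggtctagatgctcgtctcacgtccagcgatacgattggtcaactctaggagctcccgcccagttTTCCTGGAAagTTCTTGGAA
Socs3, chr11:117969466-117969566, minus strand, bases -200 to -100: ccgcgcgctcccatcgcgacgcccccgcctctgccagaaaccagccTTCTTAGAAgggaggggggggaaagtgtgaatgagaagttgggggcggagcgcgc
Socs1, chr16:10785566-10785666, minus strand, bases -130 to -30: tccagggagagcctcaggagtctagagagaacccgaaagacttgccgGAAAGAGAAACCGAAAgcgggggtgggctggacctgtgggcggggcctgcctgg
Cish held 2 STAT palindromes, starting at bases 1 and 12, and Socs3 held 1, starting at base -154. The Socs3 stretch lies within the RefSeq span of that gene (chr11:117966079-117970336), so the start used for it is not the outermost one. Socs1 held 2 interferon response cores that overlap each other, starting at bases -83 and -77, and Socs4 held neither motif. Among all 32851 promoters of the same length, 8.3% held the STAT palindrome and 3.44% the interferon core. A match describes letters in a window and is not evidence of binding.

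The labels were checked with App, which the transgene should raise, and with Prnp, whose promoter drives the transgenes in a widely used line of this name. App stood at 153, 71.0 and 166 FPKM in APP/PS1-labelled replicates 1 to 3, against 69.8, 68.5 and 146 FPKM in WT-labelled replicates 1 to 3. Prnp followed the same split, with 472, 199 and 464 FPKM in libraries labelled APP/PS1 and 188, 181 and 457 FPKM in those labelled WT. Both genes thus went against the label in the library labelled APP/PS1 replicate 2 and in that labelled WT replicate 3, and results that rest on these 2 libraries are also given without them. FPKM summed to between 182355 and 185217 per library. Neuronal markers fitted the labelled tissue, with Slc17a7, the vesicular glutamate transporter of pyramidal and granule neurons, at a mean of 94.9 FPKM and Prox1, a transcription factor of dentate granule neurons, at 15.1 FPKM.

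The family covered a wide range of levels. Socs5 led with 25.1 ± 1.39 FPKM over the 6 libraries (SD), Socs7 followed at 20.1 ± 0.924 FPKM, and together they made up between 77.9% and 83.6% of the family's summed FPKM in each library. Both lay high among the 15639 rows of the gene tables, at percentiles 91.3 and 88.4 of mean level. Socs4 averaged 4.33 ± 0.333 FPKM, Socs2 2.52 ± 0.234 FPKM and Socs6 2.17 ± 0.718 FPKM. Socs3, Cish and Socs1 averaged 0.861 ± 0.133, 0.595 ± 0.249 and 0.577 ± 0.175 FPKM, under 1 FPKM, with Cish and Socs1 at percentiles 4.0 and 3.6. The tables list only genes that reach 0.529 FPKM in some library, so these 3 lay near the bottom of what was listed. They were also the 3 members with a cytokine-response motif among the 4 promoters searched, which is a description and no test.

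**Figure D1:**
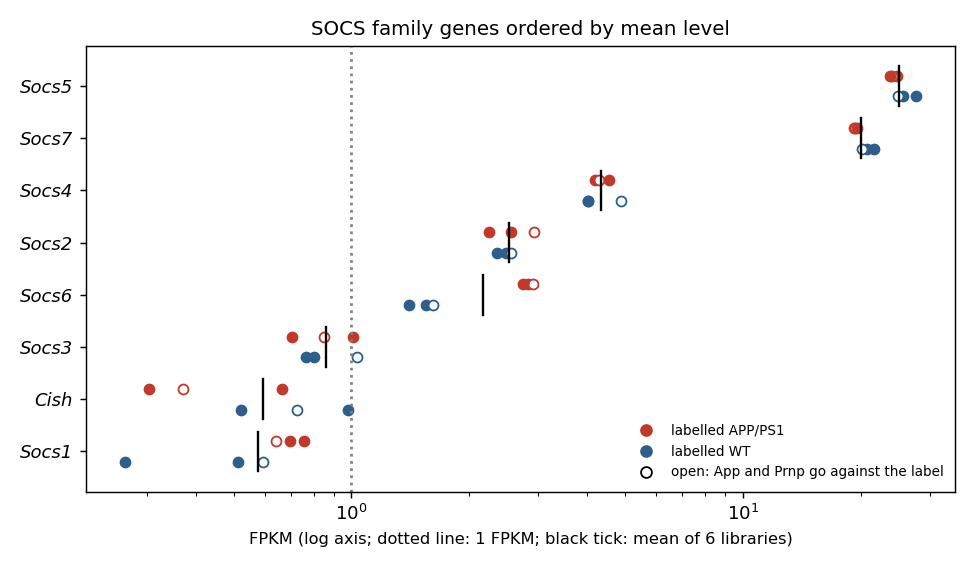
FPKM of each SOCS family gene (log axis) in the 3 libraries labelled APP/PS1 (upper points) and the 3 labelled WT (lower points), with the mean of 6 libraries as a black tick. Socs5 and Socs7 lie above 15 FPKM in every library, and Socs3, Cish and Socs1 scatter around or below 1 FPKM.

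The order of the members was fixed at the top and loose at the bottom. Socs5 exceeded Socs7, Socs7 exceeded Socs4, Socs4 exceeded Socs2 and Socs6 exceeded Socs3 in 6 of 6 libraries. Socs5 was 1.25 times Socs7, Socs7 was 4.65 times Socs4, and Socs4 was 1.72 times Socs2 by their means. Socs2 and Socs6 did not keep one order. The ratio of Socs6 to Socs2 FPKM was 1.26, 0.997 and 1.07 in APP/PS1-labelled replicates 1 to 3, against 0.563, 0.658 and 0.637 in WT-labelled replicates 1 to 3. Socs3 exceeded Cish in 5 of 6 libraries, with a mean log2 ratio of 0.63 ± 0.57 (SD). Cish and Socs1 did not differ beyond their spread (mean log2 ratio 0.01 ± 0.90): Socs1 was the higher of the pair in the 3 APP/PS1-labelled libraries, and Cish in the 3 WT-labelled libraries.

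By label, 0 of the 5 members that could be tested passed an adjusted p of 0.05 in either direction (limma on log2(FPKM + 1) with Benjamini-Hochberg adjustment over 13700 genes), where 0.0219% of all genes tested passed. Without the 2 doubted libraries the count was again 0, where 0.197% of all genes passed. Socs6 was left out of the count at an unadjusted p under 0.05, since the family was chosen through it. None of the other tested members fell under that level, where 6.69% of all genes did. The Socs6 difference is described without a p-value and supports nothing here. Socs1, Socs3 and Cish did not reach 1 FPKM in 3 libraries and are given from a fit without that filter. In bulk tissue, fewer cells of a type and less RNA per cell cannot be told apart.

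Among the cytokine-induced members, Cish, which is known to inhibit STAT5 signalling, stood at 0.303, 0.371 and 0.666 FPKM in APP/PS1-labelled replicates 1 to 3, against 0.523, 0.978 and 0.727 FPKM in WT-labelled replicates 1 to 3. The groups overlapped, since APP/PS1 replicate 3 lay above WT replicate 1. Its log2 difference, APP/PS1 minus WT, was -0.27 ± 0.13 (SE, adjusted p = 0.802 by limma without the filter). Socs1, the main brake on interferon signalling, stood at 0.696, 0.641 and 0.755 FPKM in libraries labelled APP/PS1, against 0.264, 0.513 and 0.595 FPKM in libraries labelled WT. All 3 APP/PS1-labelled libraries lay above the WT-labelled ones, by a gap of 0.0451 FPKM, and WT replicate 1 was the lowest. The log2 difference was 0.23 ± 0.11 (adjusted p = 0.78 by limma without the filter). These levels lie near the floor of the table, and the number of reads behind them is unknown.

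Socs2, the member tied to growth hormone, stood at 2.24, 2.92 and 2.56 FPKM in libraries labelled APP/PS1, against 2.48, 2.35 and 2.55 FPKM in libraries labelled WT. Its groups overlapped, with both the highest and the lowest value in APP/PS1-labelled libraries. The log2 difference was 0.04 ± 0.09 (adjusted p = 0.964 by limma), and -0.01 without the 2 libraries whose App and Prnp went against the label. Socs3, the inhibitor of gp130 signalling, stood at 0.704, 0.85 and 1.01 FPKM in libraries labelled APP/PS1, against 0.803, 0.766 and 1.03 FPKM in libraries labelled WT. The groups covered almost the same range, with replicate 3 the highest under either label, and the log2 difference was -0.01 ± 0.10 (adjusted p = 0.991 by limma without the filter). Summed over Socs1, Socs3 and Cish, the low members gave 2.0 ± 0.381 FPKM under the APP/PS1 label and 2.07 ± 0.417 FPKM under the WT label (SD, n = 3 each).

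**Figure D2:**
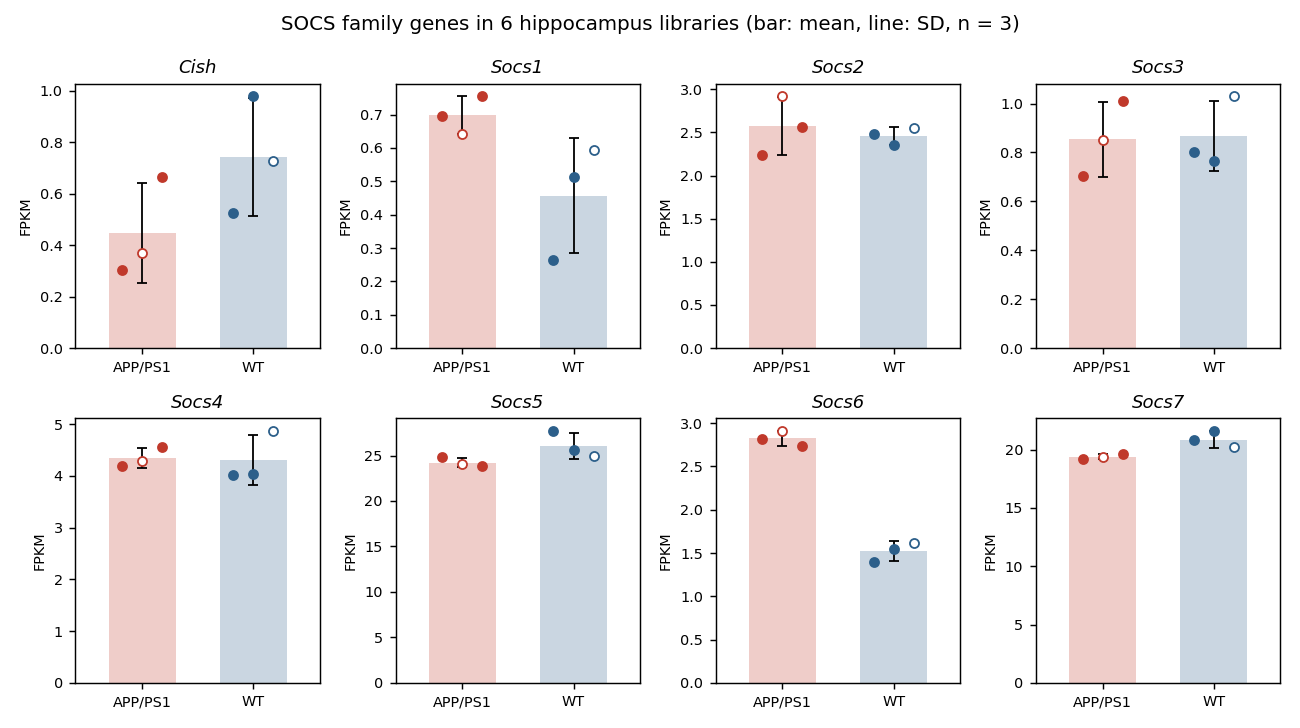
FPKM of the 8 SOCS family genes in libraries labelled APP/PS1 (left) and WT (right), with bars for the mean and lines for the SD of 3 libraries. Open points are the 2 libraries whose App and Prnp go against the label. Socs6 averages 2.82 FPKM under the APP/PS1 label and 1.52 FPKM under the WT label, and the panels have separate axes from 0.

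Among the members with long N-terminal regions, Socs6, known to bind the receptor kinases KIT and the insulin receptor, stood at 2.82, 2.91 and 2.74 FPKM in libraries labelled APP/PS1, against 1.40, 1.55 and 1.62 FPKM in libraries labelled WT. The lowest APP/PS1-labelled library lay 1.12 FPKM above the highest WT-labelled one, so the groups did not overlap. The means were 2.82 ± 0.0872 FPKM and 1.52 ± 0.115 FPKM (SD, n = 3 each), a ratio of 1.85 in FPKM, and the log2 difference was 0.60 ± 0.07 (SE) on the log2(FPKM + 1) scale, which understates changes of low genes. The 2 libraries whose App and Prnp went against the label sat with their label for Socs6: APP/PS1 replicate 2 had its highest value and WT replicate 3 the highest of the WT-labelled ones. The family was chosen by the Socs6 difference between these labels, so nothing is read from this placement. Without these 2 libraries the log2 difference was 0.61. Socs6 made up 5.10 ± 0.166% of the family's summed FPKM under the APP/PS1 label and 2.66 ± 0.232% under the WT label.

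Socs4, a regulator of epidermal growth factor receptor signalling, stood at 4.19, 4.29 and 4.56 FPKM in libraries labelled APP/PS1, against 4.02, 4.03 and 4.87 FPKM in libraries labelled WT. The WT-labelled values enclosed those of the other label, through WT replicate 3, and the log2 difference was 0.01 ± 0.08 (adjusted p = 0.988 by limma). Without the 2 doubted libraries it was 0.10 (adjusted p = 0.758 by limma). Socs5, the most abundant member, also tied to the epidermal growth factor receptor, stood at 24.8, 24.1 and 23.8 FPKM in libraries labelled APP/PS1, against 27.7, 25.6 and 24.9 FPKM in libraries labelled WT. The groups did not overlap, but only by 0.0956 FPKM, and after TMM or quantile scaling they did. The log2 difference was -0.10 ± 0.05 (adjusted p = 0.817 by limma). Socs7, which binds the adaptor NCK and insulin receptor substrates, stood at 19.2, 19.4 and 19.6 FPKM in libraries labelled APP/PS1, against 20.8, 21.6 and 20.2 FPKM in libraries labelled WT. Here too the groups did not overlap, with a gap of 0.676 FPKM, and the log2 difference was -0.10 ± 0.05 (adjusted p = 0.785 by limma).

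Over the family, 4 of the 8 members had libraries that did not overlap between the labels, Socs1 and Socs6 higher and Socs5 and Socs7 lower under the APP/PS1 label. Among all 15639 rows 11.8% did not overlap, 5.41% higher and 6.38% lower. With 1 member behind the choice of the family, nothing particular to it is read from this count. An exact two-sided permutation test of 3 against 3 libraries cannot go below p = 0.1. Summed over the family, FPKM was 55.3 ± 0.3 under the APP/PS1 label and 57.3 ± 0.697 under the WT label (SD, n = 3 each), set mainly by Socs5 and Socs7. The circRNA tables listed 257 circles with coordinates, and 0 of them overlapped a SOCS family gene as placed by RefSeq on GRCm38.p6. The other 1989 circles, known by database number, were not analysed here.

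Socs6 was the only tested member whose log2(FPKM + 1) spanned at least 0.5 over the 6 libraries (0.71). The 3 tested genes whose profiles lay closest to it, by the root mean square difference of mean-centred log2(FPKM + 1) over 6 libraries, were Chpt1 (0.073), Tmem161a (0.074) and Ccdc113 (0.121). Chpt1, a cholinephosphotransferase of phosphatidylcholine synthesis, stood at 4.96, 4.24 and 4.57 FPKM in libraries labelled APP/PS1, against 2.49, 2.56 and 2.62 FPKM in libraries labelled WT. Tmem161a, a membrane protein gene, stood at 4.98, 4.57 and 4.05 FPKM in libraries labelled APP/PS1, against 2.65, 2.95 and 2.90 FPKM in libraries labelled WT. Ccdc113, a gene of ciliary proteins, stood at 2.12, 2.09 and 1.97 FPKM in libraries labelled APP/PS1, against 1.09, 1.45 and 1.53 FPKM in libraries labelled WT. All 3 were low genes without overlap between the labels, and since Socs6 splits by label, genes most like it had to split in the same way.

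**Figure D3:**
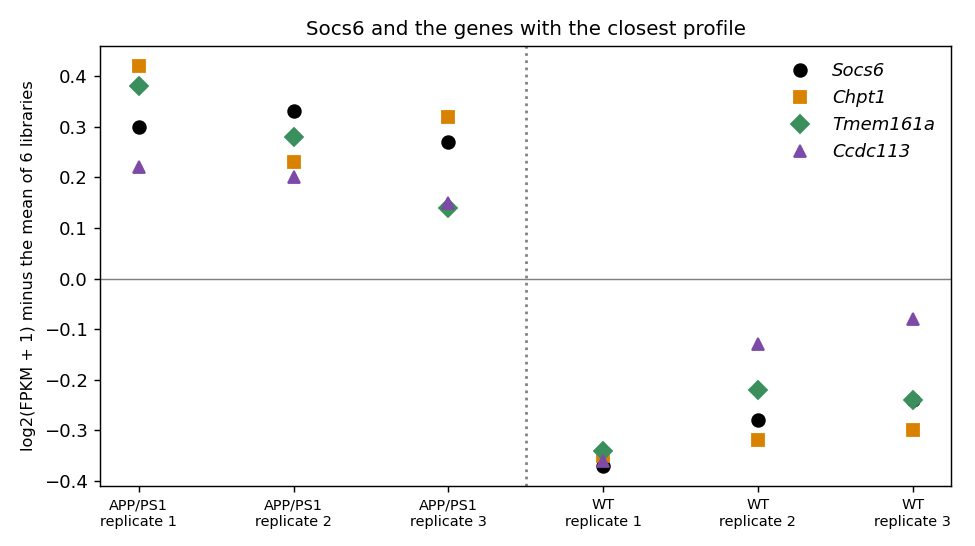
Log2(FPKM + 1) minus the mean of 6 libraries for Socs6 and the 3 genes with the closest profiles, by library, with APP/PS1-labelled libraries left of the dotted line. All 4 genes lie above 0 in the APP/PS1-labelled and below 0 in the WT-labelled libraries.

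The pathway that SOCS proteins act on was described next, with lists of genes from ligand to target. Few of its ligands were seen: 4 of 20 cytokine genes were listed, and 2 could be tested. Of these, 0 passed over all genes and 1 was lower at an unadjusted p under 0.05, where 3.83% of all genes were. Cntf, ciliary neurotrophic factor, had a log2 difference of -0.51 ± 0.34 and overlapped between the labels. Gh, growth hormone, was listed at 3.98 FPKM in the library labelled APP/PS1 replicate 2 and at 0 in 4 of the others, with 0.194 FPKM in WT replicate 3. Socs2, which growth hormone is known to induce, had its highest value in that same library labelled APP/PS1 replicate 2, at 2.92 FPKM, and a part of Gh in this was not tested.

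Receptors were better represented, with 20 of 26 listed and 17 tested. None passed (0 higher and 0 lower), and 0 had an unadjusted p under 0.05, where 6.69% of all genes did. The median log2 difference of the receptors was 0.01, against -0.0009 over all genes tested. Cntfr, the CNTF receptor, had the highest mean at 15.5 FPKM, followed by Ifngr2, a chain of the interferon gamma receptor, at 13.9 FPKM and Lifr, the leukaemia inhibitory factor receptor, at 12.2 FPKM. Il6st, which encodes the shared signalling chain gp130, averaged 7.83 FPKM. Lifr had a log2 difference of 0.09 ± 0.06 and Cntfr of -0.12 ± 0.05, both without overlap between the labels. For Lifr the gap was lost in rounding, with APP/PS1 replicate 3 and WT replicate 3 both at 12.2 FPKM. Of the receptors tested, 1 was higher and 1 lower without overlap, where 5.41% and 6.38% of all rows were. The receptors for growth hormone (Ghr) and leptin (Lepr) were low, at 1.38 and 1.31 FPKM.

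Of 4 JAK kinase genes 3 were tested, with 0 passed in either direction and a median log2 difference of -0.02. At an unadjusted p under 0.05 there were 0, where 6.69% of all genes were. Jak1, which serves most cytokine receptors, averaged 26.5 ± 0.409 FPKM under the APP/PS1 label and 26.8 ± 0.943 FPKM under the WT label (SD, n = 3 each). Jak2, the kinase of growth hormone and leptin receptors, had 10.2 ± 0.58 FPKM under the APP/PS1 label and 10.1 ± 0.651 FPKM under the WT label. Tyk2, which serves interferon receptors, stood at 2.49, 2.63 and 2.65 FPKM in libraries labelled APP/PS1, against 3.28, 2.90 and 2.93 FPKM in libraries labelled WT. Its groups did not overlap, and its log2 difference of -0.17 ± 0.07 did not pass (adjusted p = 0.741 by limma). Of 7 STAT genes 5 were tested, with 0 passed and a median of 0.03. At an unadjusted p under 0.05, 1 gene was lower, where 3.83% of all genes were. That gene was Stat3, the factor downstream of gp130 that induces Socs3, at 3.65, 3.91 and 4.03 FPKM in libraries labelled APP/PS1, against 4.61, 4.42 and 4.64 FPKM in libraries labelled WT. Its groups did not overlap, and its log2 difference of -0.19 ± 0.06 did not pass (adjusted p = 0.665 by limma), while Socs3 had -0.01 ± 0.10.

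**Figure D4:**
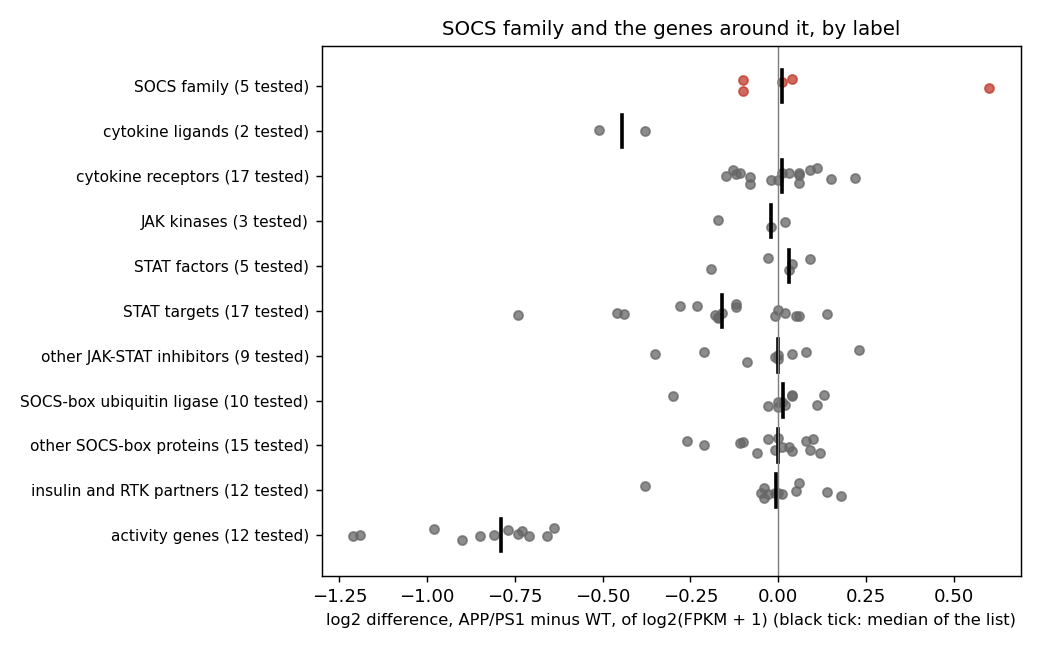
Log2 difference of log2(FPKM + 1), APP/PS1 minus WT, for each tested gene of the SOCS family and of 10 gene lists around it, with the median of each list as a black tick. Most lists centre near 0, Socs6 stands to the right at 0.60, and the activity genes lie to the left with a median of -0.79.

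Apart from the 2 tested ligands and the activity genes given below, STAT targets were the pathway list whose median lay furthest from 0. Of 17 tested, 0 passed in either direction, 0 were higher and 5 lower at an unadjusted p under 0.05, where 2.85% and 3.83% of all genes were, and the median log2 difference was -0.16. Without the 2 doubted libraries that median was -0.05, with 5 genes lower at an unadjusted p under 0.05, where 4.98% of all genes were. Cebpb, a transcription factor of acute phase responses, stood at 8.73, 10.7 and 9.11 FPKM in libraries labelled APP/PS1, against 12.2, 13.4 and 14.8 FPKM in libraries labelled WT (log2 difference -0.46 ± 0.09, adjusted p = 0.367 by limma). Junb, Mcl1, Cebpd and Bcl6 had log2 differences of -0.74, -0.23, -0.44 and -0.28, and Gfap, the astrocyte filament, had -0.16 ± 0.17. Without the 2 doubted libraries Junb, Mcl1, Cebpd and Bcl6 had -0.98, -0.21, -0.49 and -0.28, and Gfap changed sign to 0.11. Among interferon targets, Irf9, Gbp2 and Ifit3 had log2 differences of -0.18, -0.17 and -0.12, Irf1 had -0.0 and Bst2 had 0.06. Isg15 was too low to be tested, with means of 0.646 FPKM under the APP/PS1 label and 0.475 FPKM under the WT label. Only Irf9 of these did not overlap between the labels. Without the 2 doubted libraries Irf9, Gbp2, Ifit3, Irf1 and Bst2 had -0.19, 0.0, -0.07, -0.02 and 0.09. Junb is also a gene of neuronal activity, and all 12 activity genes had negative log2 differences, with a median of -0.79. Of these, 0 passed the adjusted threshold and 11 were lower at an unadjusted p under 0.05, where 3.83% of all genes were. Summed, the activity genes gave 185 to 313 FPKM under the APP/PS1 label and 374 to 490 FPKM under the WT label. Without the 2 doubted libraries their median was -1.02, with 12 lower at an unadjusted p under 0.05, where 4.98% of all genes were. The part of the activity genes in the STAT target values was not tested.

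The machinery that SOCS boxes recruit was abundant and close to level. All 10 ubiquitin ligase genes were tested, with 0 passed in either direction and a median log2 difference of 0.01. At an unadjusted p under 0.05 there were 0, where 6.69% of all genes were. Elob, the elongin B gene, averaged 88.0 FPKM over the 6 libraries, Eloc, its partner elongin C, 14.8 FPKM, the scaffold Cul5 10.5 FPKM and its RING subunit Rnf7 27.1 FPKM. Among other proteins with a SOCS box 15 of 27 were tested, with 0 passed. At an unadjusted p under 0.05, 1 was lower, where 3.83% of all genes were. Spsb1, which targets inducible nitric oxide synthase, stood at 3.49, 3.27 and 3.38 FPKM in libraries labelled APP/PS1, against 4.31, 4.15 and 4.28 FPKM in libraries labelled WT (log2 difference -0.26 ± 0.06, adjusted p = 0.531 by limma). Wsb2 and Wsb1, at means of 24.5 and 12.4 FPKM, were on the scale of Socs5 and Socs7, with log2 differences of 0.08 and 0.10.

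Inhibitors of JAK-STAT signalling outside the family covered a wide range of levels. Of 11, 9 were tested, with 0 passed. At an unadjusted p under 0.05, 1 was higher and 2 lower, where 2.85% and 3.83% of all genes were. Ptpn11, the phosphatase SHP2, averaged 22.6 FPKM, Pias2 14.9 FPKM and Ptpn1, a phosphatase of JAK2 and the insulin receptor, 9.28 FPKM, while Ptpn6, the phosphatase SHP1, averaged 1.06 FPKM. Ptpn1 had a log2 difference of -0.21 ± 0.07, Sh2b3, an adaptor that restrains JAK2, of -0.35 ± 0.15 and Pias3, an inhibitor of STAT3, of 0.23 ± 0.10. Among 12 insulin and receptor kinase genes known as partners of SOCS6 and SOCS7 or their targets, all tested, 0 passed. At an unadjusted p under 0.05, 1 was higher and 1 lower, where 2.85% and 3.83% of all genes were. Irs2, the insulin receptor substrate, stood at 17.7, 21.1 and 16.1 FPKM in libraries labelled APP/PS1, against 23.3, 23.2 and 25.6 FPKM in libraries labelled WT (log2 difference -0.38 ± 0.10, adjusted p = 0.547 by limma). Pik3r1, a regulatory subunit of phosphoinositide 3-kinase, had 0.14 ± 0.05, and Kit and Insr, whose receptors SOCS6 binds, had 0.05 ± 0.07 and 0.18 ± 0.11.

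Cell type markers are given beside these values. Of 10 oligodendrocyte markers, 5 were higher at an unadjusted p under 0.05, where 2.85% of all genes were. All 10 had positive log2 differences, with a median of 0.24 and 0 past the adjusted threshold. Their summed level was 423 to 511 FPKM under the APP/PS1 label and 351 to 450 FPKM under the WT label, so the summed levels overlapped. Opalin and Mog, a pair of myelin membrane protein genes, did not overlap, with log2 differences of 0.39 ± 0.07 and 0.24 ± 0.08. Without the 2 doubted libraries the median was 0.33, with 8 markers higher at an unadjusted p under 0.05, where 575 of all 13700 genes tested were. Microglia, astrocyte, endothelial and neuronal marker lists had median log2 differences between -0.01 and 0.03, and their summed levels overlapped between the labels. All 10 markers of each of the 5 lists were detected in every library, and the part of cell composition in the SOCS values was not tested.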

How the data were processed

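Total RNA of hippocampus was sequenced in 6 libraries, 3 per label. No header names the unit of the gene tables. Their values were taken as FPKM that the authors deposited, since StringTie, a tool that writes FPKM, stands beside HISAT2, FastQC and mm9 in the submitters' processing notes, which give no role. The circRNA values are whole-number read counts per circle as deposited by the authors, totalling 13998 to 19584 per library, and how circles were called is not stated. Rows that reached 1 FPKM in 3 or more libraries (13700 genes) entered limma 3.58.1 (R 4.3.3, trend and robust settings) on log2(FPKM + 1). The label was the single term, and p-values were adjusted by Benjamini-Hochberg over those genes. When tested on simulated data of this comparison with 13700 genes, it called 69 of 100 genes set 1.5-fold higher. Of those set 2-fold higher it called 90 of 100. These folds are on the scale of FPKM + 1, which understates changes of low genes. Recovery at the level of the low SOCS members, or with libraries that go against their label, was not tested. The members and gene lists were chosen with earlier results of these data known. Named were all members, App and Prnp, up to 3 genes per list by smallest p and the 3 genes closest to a member in profile; further list genes were named for their role after their values were seen, and 1 gene is not reported here. Lists are described by counts and medians, without set tests. Sequences and positions come from RefSeq tables of GRCm38.p6, and no FPKM was tied to coordinates. Symbols were matched as written, although Socs4 and Socs7 also serve as older names of other members. Alternatives were other filters, a pseudocount of 0.1, TMM (edgeR 4.0.16) or quantile scaling, limma without trend or with array weights, the replicate number as a block, and libraries left out.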

Additional observations from a re-analysis of the deposited data

How the results depend on the processing

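The count of SOCS family members past the adjusted threshold was 0 in each direction under all 15 alternatives. The log2 difference of Socs6, by which the family was chosen, ran from 0.56 to 0.85, that of Socs5 from -0.13 to -0.06 and that of Socs7 from -0.12 to -0.08. Socs2 ran from -0.03 (without APP/PS1 replicate 2) to 0.11 with single libraries left out, and was -0.01 without both doubted libraries. Socs4 ran from -0.02 (without WT replicate 1 or 2) to 0.09, and was -0.01 without APP/PS1 replicate 3. Members without overlap numbered 2 in each direction. Leaving out single libraries gave 2 to 3 in each, and TMM or quantile scaling 1 lower, Socs7, with Socs5 then overlapping (chosen after seeing the data). Without both doubted libraries 3 were higher, Socs1, Socs4 and Socs6. Fewer libraries separate more easily, and the share of all rows was not counted for these settings, so nothing is read from these counts. The block on the replicate number left 0 members past the threshold. Same-numbered libraries deviated together with correlations of 0.01, -0.056 and -0.094, so no pairing by number was seen. With few libraries, 2 of them doubted, these correlations cannot exclude a pairing. Medians of pathway lists moved past their spread in 6 cases, and that of the astrocyte markers in 8, and the cause was not tested. Those of pathway lists were -0.94 for ligands with a pseudocount of 0.1, and without both doubted libraries 0.07 for the ubiquitin ligase, -0.04 for insulin partners and -0.05 for STAT targets. With single libraries left out, STAT factors ran from -0.02 to 0.04 and other inhibitors from -0.03 to 0.02. Activity genes past the threshold ran from 0 to 3 with single libraries left out (3 without APP/PS1 replicate 2: Fosb, Egr2 and Egr4). They numbered 3 without both doubted libraries (Arc, Egr2 and Egr4). Calls also rose over all 13700 genes, from 1 higher and 2 lower in the main fit. They were 8 higher and 22 lower without APP/PS1 replicate 2, and 11 higher and 16 lower without both doubted libraries. The depth behind FPKM, and so the counting error of low genes such as Socs1, Socs3 and Cish, is unknown.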
